A study of Mus musculus with 6 samples.

Results

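The genes described here were 10 members of the Notch pathway, measured in whole uteri on day 4 of pregnancy, among 56748 genes in each deposited table. They were chosen by name, as the 4 receptors *Notch1*, *Notch2*, *Notch3* and *Notch4*, the 4 ligands *Jag1*, *Jag2*, *Dll1* and *Dll4*, and the HES/HEY-type targets *Hes1* and *Hey1*. Each symbol matched 1 gene identifier, and all 10 passed the filter on low counts. None of the 10 passed a false discovery rate (FDR) of 0.05 between the groups in the quasi-likelihood test of edgeR. The receptors *Notch3* and *Notch4* and the ligands *Jag1*, *Jag2* and *Dll1*, 5 of the 10, were lower in the *Gp130* ecKO at an unadjusted p below 0.05, as 12.9% of all tested genes were. *Notch4*, *Jag2* and *Dll1* were lower in every *Gp130* ecKO uterus than in every control uterus, and these 3 of 10 members without overlap stood beside 31.3% of all tested genes (15.6% on the lower side).

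Uteri of 3 control and 3 *Gp130* ecKO females on a C57BL/6J background were collected at 1600 h on day 4, before the embryo attaches. *Gp130* ecKO females carried 1 *Ltf*-iCre allele and floxed *Gp130* on both chromosomes, so that *Gp130* (*Il6st*), the shared signalling receptor of LIF and related cytokines, was deleted in the uterine epithelium, and *Ltf* is also active in some immune cells. Control females are labelled wildtype, and the study's methods describe its controls as floxed without iCre or as wildtype. All females were sexually mature and mated with wildtype males, and each library is labelled as a separate uterus. The RNA came from the whole organ, so epithelium, stroma, vessels and muscle were read together, and fewer cells of a type cannot be told apart from less RNA per cell.

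Notch receptors are single-pass membrane proteins that bind Jagged or Delta-like ligands on a neighbouring cell. Binding lets ADAM proteases and then γ-secretase cut the receptor, and the freed intracellular part enters the nucleus, joins the DNA-binding protein RBPJ and a Mastermind coactivator, and activates genes such as *Hes1* and *Hey1*, which encode transcriptional repressors. In most tissues *Notch4* and *Dll4* are best known from the endothelium and *Notch3* from pericytes and smooth muscle, while *Notch1*, *Notch2*, *Jag1* and *Jag2* are made by many cell types, epithelia among them.

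The promoter table of RefSeq (build GRCm38.p6, windows of 250 bases before to 50 bases after a transcript start) held 8 of the 10 genes. *Hes1* and *Hey1* had no entry. Each window was searched on both strands for TGGGAA, the core that RBPJ binds, for its longer form GTGGGAA, for CACGTG, an E-box, for CACNAG, the N-box bound by HES proteins, and for TTCNNNGAA, the palindrome that STAT factors bind. GTGGGAA always contains TGGGAA. The RBPJ core, its longer form and the E-box matched in 0 of the 8 genes, against 25.6%, 6.4% and 7.2% of all 32851 windows in the table. CACNAG matched in 5 of the 8 genes and in 42.5% of all windows. A gene was counted if any of its windows matched, while the shares are per window. The *Dll1* window that is not printed below held none of the motifs. TTCNNNGAA matched in 1 gene, *Notch3*, and in 8.3% of all windows, starting 3 bases after the start. The 5 windows below are shown because they hold the STAT-type match (*Notch3*), the most CACNAG matches (*Notch1*), or belong to the members whose groups did not overlap (*Notch4*, *Jag2* and *Dll1*, of which *Dll1* had 2 windows and the upstream one is printed). Capitals mark CACNAG or TTCNNNGAA on either strand, and CACTAGTG in *Notch1* is a pair of CACNAG matches, one on each strand, that overlap. *Notch4* and *Jag2* held none of the motifs. A match describes these letters only and is not evidence of binding.
*Notch3*, chr17:32166841-32167140, minus strand: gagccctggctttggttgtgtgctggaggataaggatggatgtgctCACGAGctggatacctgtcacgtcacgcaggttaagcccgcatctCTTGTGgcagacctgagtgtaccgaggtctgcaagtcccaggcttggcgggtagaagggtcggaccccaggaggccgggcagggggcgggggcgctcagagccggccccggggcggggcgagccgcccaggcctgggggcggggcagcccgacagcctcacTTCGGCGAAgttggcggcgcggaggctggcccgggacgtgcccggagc
*Notch1*, chr2:26503773-26504072, minus strand: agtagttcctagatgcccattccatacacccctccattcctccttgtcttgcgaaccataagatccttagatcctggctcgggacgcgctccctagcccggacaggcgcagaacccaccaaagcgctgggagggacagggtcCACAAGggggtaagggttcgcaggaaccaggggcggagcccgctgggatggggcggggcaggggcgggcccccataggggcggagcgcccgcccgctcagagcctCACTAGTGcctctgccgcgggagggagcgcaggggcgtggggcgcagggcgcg
*Notch4*, chr17:34564045-34564344, plus strand: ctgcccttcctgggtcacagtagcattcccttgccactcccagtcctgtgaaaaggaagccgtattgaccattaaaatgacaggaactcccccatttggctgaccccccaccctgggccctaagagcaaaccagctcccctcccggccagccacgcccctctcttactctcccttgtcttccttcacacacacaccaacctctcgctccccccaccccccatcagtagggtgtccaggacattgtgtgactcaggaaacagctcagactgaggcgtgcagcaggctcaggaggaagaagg
*Jag2*, chr12:112929446-112929745, minus strand: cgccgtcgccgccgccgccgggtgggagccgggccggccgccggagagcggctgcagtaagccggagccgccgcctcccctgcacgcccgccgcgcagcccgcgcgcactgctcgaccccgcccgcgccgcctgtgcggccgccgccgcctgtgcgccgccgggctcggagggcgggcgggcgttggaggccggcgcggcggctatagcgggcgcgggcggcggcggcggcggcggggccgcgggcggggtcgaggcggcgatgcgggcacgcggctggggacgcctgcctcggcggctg
*Dll1*, chr17:15376883-15377182, minus strand: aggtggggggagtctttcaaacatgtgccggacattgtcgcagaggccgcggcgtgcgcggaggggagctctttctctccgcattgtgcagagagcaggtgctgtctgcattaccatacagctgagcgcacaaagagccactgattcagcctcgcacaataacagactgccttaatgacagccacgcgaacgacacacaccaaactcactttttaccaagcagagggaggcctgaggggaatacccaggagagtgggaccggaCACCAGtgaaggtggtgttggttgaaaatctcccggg

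Levels can be compared between genes per transcript length, in the deposited TPM. *Hes1* was the most abundant of the 10 in the control, at 62.6 ± 15.4 TPM (SD, n = 3), followed by *Jag1* at 17.9 ± 4.76 TPM (SD, n = 3), and the 3 control values of each lay above those of the next gene in the order. *Notch1* (8.89 TPM), *Hey1* (7.66), *Dll4* (7.58), *Jag2* (7.26) and *Notch2* (5.68) followed with ranges that overlapped from each gene to the next. *Notch4* (3.73 TPM), *Notch3* (3.63) and *Dll1* (1.96) were lowest, again with overlapping neighbours. In the *Gp130* ecKO *Hes1* was again first, at 89.8 ± 45.6 TPM (SD, n = 3), while *Jag1* stood sixth at 10.4 ± 4.88 TPM (SD, n = 3). The uteri of the *Gp130* ecKO overlapped between all neighbours from *Hey1* down to *Jag1*, so the order within that range was not resolved. *Notch4*, *Notch3* and *Dll1* stayed at the bottom of the order in both groups.

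Differences between the groups were taken from counts. Of all 16605 tested genes, 0.157% passed the FDR threshold, 25% had an unadjusted p below 0.05, 12.9% were lower at that p, and in 31.3% the groups did not overlap in CPM (counts scaled to a common library total). Among the 10 members these numbers were 0 genes at the FDR threshold, 5 at the unadjusted p, all 5 lower, and 3 without overlap, all 3 lower (15.6% of all tested genes were lower without overlap). The median log2 fold change of the members was −0.28, beside −0.05 over all tested genes, with 5 members higher (as 47.1% of all tested genes were) and 5 lower. In what follows the values of a group are given in the order of uteri 1, 2 and 3, SE is the standard error, and adjusted p-values are from the quasi-likelihood fit of edgeR unless another test is named. Other tests placed 1 member (exact and likelihood ratio tests of edgeR) or 3 members (DESeq2) below the FDR threshold, beside 8.99%, 9.5% and 13.4% of all tested genes. Control 2 stood nearer to the mutant libraries than the other controls did, with a correlation of log2 CPM across genes of 0.967 with *Gp130* ecKO 2, against 0.958 with control 1 and 0.946 with control 3 (genes are not independent replicates). Without control 2 again 0 members passed the FDR threshold, beside 5.41% of all genes tested, and 4 were below the unadjusted p (*Notch2*, higher, and *Notch4*, *Jag1* and *Dll1*, lower), beside 27.3%. With 3 uteri per group the smallest p of an exact two-sided permutation test is 0.1, and each of the 3 members without overlap had that value.

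**Figure D1:**
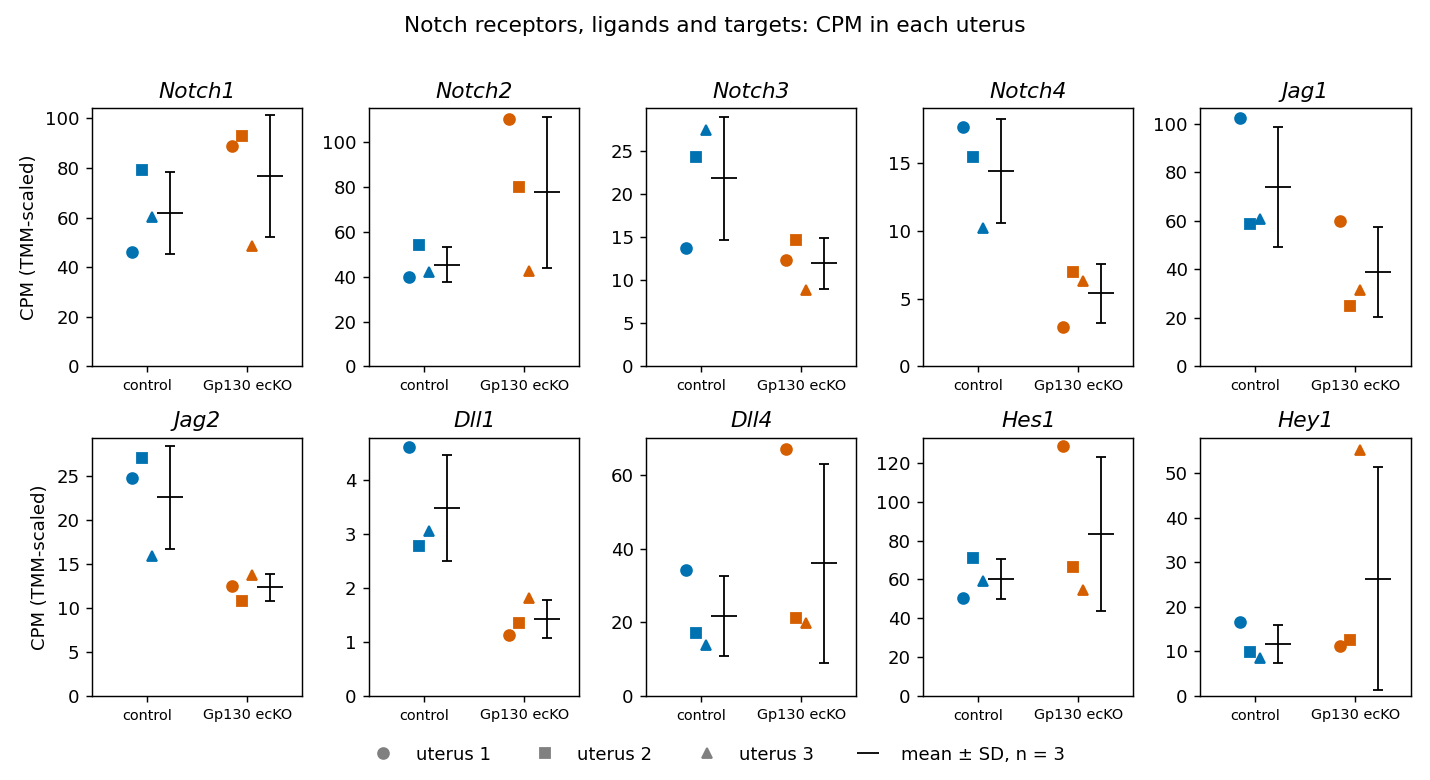
Each panel plots the CPM (TMM-scaled, linear axis from 0) of 1 gene in the 3 control uteri (blue) and the 3 *Gp130* ecKO uteri (orange), with symbols for uterus 1, 2 and 3 and a bar for the mean ± SD. *Notch4*, *Jag2* and *Dll1* are separated between the groups, *Gp130* ecKO 1 is highest for *Notch2*, *Dll4* and *Hes1*, and *Gp130* ecKO 3 is highest for *Hey1*.

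Among the receptors, *Notch4* was the member with the largest difference. *Notch4* (ENSMUSG00000015468, GRCm39 chromosome 17, 34783220 to 34807477) encodes the receptor best known from blood vessels. Control uteri held 17.7, 15.5 and 10.2 CPM, and *Gp130* ecKO uteri held 2.89, 6.96 and 6.34. No *Gp130* ecKO uterus reached the lowest control, and *Gp130* ecKO 1 was the lowest of all. The level was 2.68-fold lower, a log2 fold change of −1.42 ± 0.39 (SE; edgeR unadjusted p = 0.00774 and adjusted p = 0.105). The exact test of edgeR (adjusted p = 0.0320), the likelihood ratio test of edgeR (0.0294) and DESeq2 (0.01275) placed *Notch4* below the FDR threshold, as they did for 8.99%, 9.5% and 13.4% of all tested genes. Over all 17 alternatives its adjusted p ranged from 0.01275 to 0.261. In TPM the groups overlapped, with 4.16, 4.51 and 2.51 in the controls and 0.70, 3.19 and 3.27 in the *Gp130* ecKO. RSEM's transcript-weighted length of *Notch4*, over 12 annotated transcripts, was 5309, 4539 and 5712 bases in the controls and 5831, 3362 and 2473 bases in *Gp130* ecKO 1, 2 and 3, and TPM divides by that length.

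*Notch3* (ENSMUSG00000038146, chromosome 17, 32339794 to 32385893), the receptor of mural cells, read 13.8, 24.3 and 27.4 CPM in control uteri, against 12.3, 14.7 and 8.83 in the *Gp130* ecKO. Control 1 was below *Gp130* ecKO 2, so the groups overlapped. *Notch3* differed by −0.87 ± 0.32 on the log2 scale (SE; edgeR unadjusted p = 0.0302 and adjusted p = 0.161), and by −1.08 (without control 1) to −0.66 (without *Gp130* ecKO 3) when any 1 uterus was left out.

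*Notch1* and *Notch2*, the more abundant receptors, did not share this direction. *Notch1* (ENSMUSG00000026923, chromosome 2, 26347915 to 26406675) read 46.0, 79.4 and 60.1 CPM in control uteri, against 88.9, 92.8 and 48.6 in the *Gp130* ecKO. *Gp130* ecKO 3 lay among the controls. Its log2 fold change was 0.31 ± 0.30 (SE; edgeR adjusted p = 0.536). *Notch2* (ENSMUSG00000027878, chromosome 3, 97920800 to 98057677) read 39.7, 54.2 and 42.1 CPM in control uteri, against 110.3, 79.9 and 42.7 in the *Gp130* ecKO. *Gp130* ecKO 1 and 2 were above all controls, and *Gp130* ecKO 3 was not. This gave a log2 fold change of 0.78 ± 0.33 (SE; edgeR unadjusted p = 0.0505 and adjusted p = 0.201), which was 0.44 when *Gp130* ecKO 1 was left out and 1.09 when *Gp130* ecKO 3 was. Of the summed TPM of the 4 receptors, *Notch2* made up 27.3%, 25.4% and 25.4% in the controls and 46.9%, 34.8% and 31.1% in the *Gp130* ecKO. *Notch3* made up 12.5%, 14.9% and 21.7% in the controls and 6.90%, 8.39% and 8.42% in the *Gp130* ecKO. For both receptors the shares did not overlap between the groups. The summed receptor TPM did overlap, at 17.2 to 26.6 in the control and 16.3 to 33.2 in the *Gp130* ecKO.

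Of the ligands, 3 of 4 were lower at an unadjusted p below 0.05, beside 12.9% of all tested genes. *Jag1* (ENSMUSG00000027276, chromosome 2, 136923373 to 136958693), the most abundant ligand of the control uterus, read 102, 58.6 and 60.6 CPM in control uteri, against 59.8, 25.0 and 31.4 in the *Gp130* ecKO. Control 1 was the highest, and *Gp130* ecKO 1 lay between controls 2 and 3, so the groups overlapped by 1 uterus. The level was 1.91-fold lower, a log2 fold change of −0.93 ± 0.37 (SE; edgeR unadjusted p = 0.0385 and adjusted p = 0.179). Leaving out *Gp130* ecKO 1 gave −1.39 and leaving out control 1 gave −0.60, and over all alternatives its adjusted p ranged from 0.0906 to 0.396. *Jag1* also stands in a gene table that the study drew from these uteri. Like the other members, it was chosen with earlier results of these data known, so the choice was not independent of these uteri.

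*Jag2* (ENSMUSG00000002799, chromosome 12, 112871421 to 112893437), the other Jagged ligand, read 24.8, 27.0 and 15.9 CPM in control uteri, against 12.5, 10.7 and 13.8 in the *Gp130* ecKO. The 3 *Gp130* ecKO uteri lay close together and below the lowest control, control 3. *Jag2* differed by −0.87 ± 0.26 on the log2 scale (SE; edgeR unadjusted p = 0.0112 and adjusted p = 0.115), and by −1.07 to −0.69 when any 1 uterus was left out. *Jag2* was the only member whose groups did not overlap in TPM either. *Dll1* (ENSMUSG00000014773, chromosome 17, 15587276 to 15597134), a Delta-like ligand, was the weakest of the 10, with 4.61, 2.78 and 3.07 CPM in control uteri against 1.13, 1.35 and 1.82 in the *Gp130* ecKO. All *Gp130* ecKO uteri were below all controls. Its log2 fold change was −1.28 ± 0.38 (SE; edgeR unadjusted p = 0.0109 and adjusted p = 0.114). DESeq2 placed *Jag2* (adjusted p = 0.0342) and *Dll1* (0.0347) below the FDR threshold, and edgeR's tests did not. In TPM *Dll1* overlapped, since *Gp130* ecKO 2 (1.57) was above control 2 (1.55), and its weighted length was 1368 bases in *Gp130* ecKO 2 and 2400 bases in control 2.

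*Dll4* (ENSMUSG00000027314, chromosome 2, 119156170 to 119166443), the Delta-like ligand known from sprouting vessels, read 34.2, 17.1 and 13.9 CPM in control uteri, against 67.2, 21.2 and 19.7 in the *Gp130* ecKO. *Gp130* ecKO 1 was far above the other uteri, and *Gp130* ecKO 2 and 3 were below control 1. *Dll4* had a log2 fold change of 0.73 ± 0.55 (SE; edgeR adjusted p = 0.433), which turned to −0.09 when *Gp130* ecKO 1 was left out, so its sign rested on that uterus. Within the summed TPM of the 4 ligands, *Jag1* made up 53.0%, 45.5% and 56.02% in the controls and 33.6%, 32.8% and 36.8% in the *Gp130* ecKO. *Dll4* made up 26.2%, 19.7% and 17.6% in the controls and 54.5%, 44.0% and 34.8% in the *Gp130* ecKO. In each control uterus *Jag1* was the leading ligand, and in *Gp130* ecKO 1 and 2 *Dll4* was, with *Gp130* ecKO 3 close to even. These shares are descriptions of relative abundance, without a test.

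**Figure D2:**
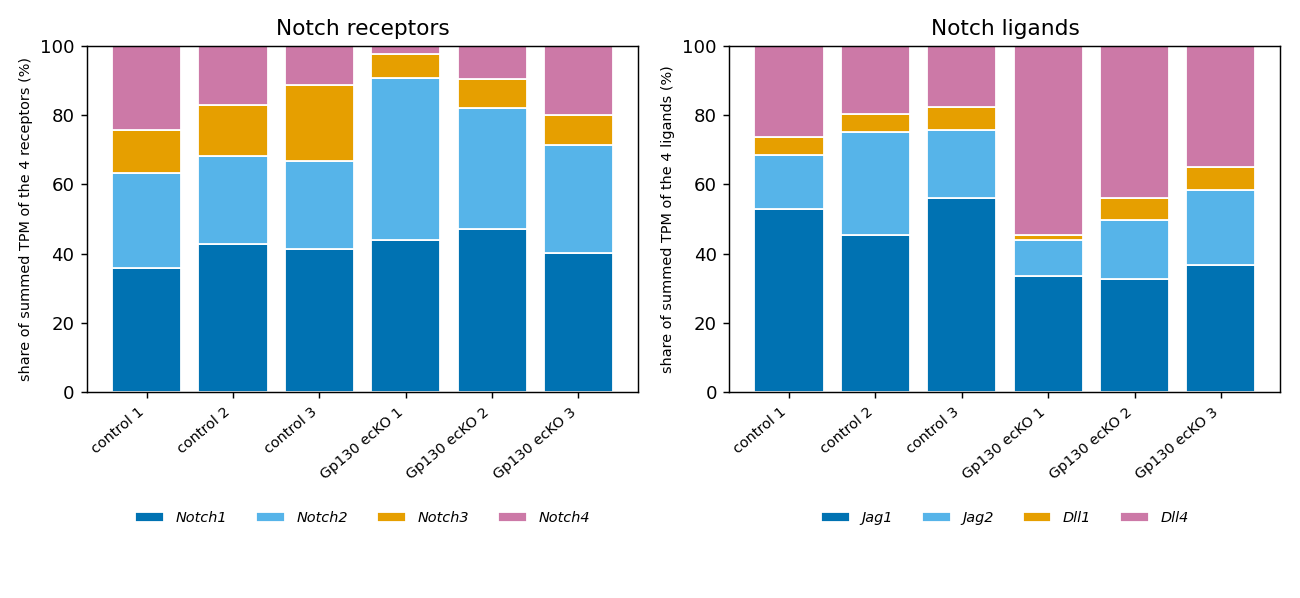
Stacked bars give the share (percent, axis from 0 to 100) of each receptor in the summed TPM of the 4 receptors (left) and of each ligand in the summed TPM of the 4 ligands (right), 1 bar per uterus. The *Jag1* share is between 45.5% and 56.02% in the controls and between 32.8% and 36.8% in the *Gp130* ecKO, and the *Dll4* share is higher in all 3 *Gp130* ecKO uteri than in any control.

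The targets were uneven between uteri of the *Gp130* ecKO. *Hes1* (ENSMUSG00000022528, chromosome 16, 29882134 to 29886643), a basic helix-loop-helix repressor, read 50.4, 71.0 and 59.2 CPM in control uteri, against 129, 66.4 and 54.8 in the *Gp130* ecKO. *Gp130* ecKO 2 and 3 lay within the range of the controls. *Hes1* had a log2 fold change of 0.47 ± 0.33 (SE; edgeR adjusted p = 0.398), and of 0.01 when *Gp130* ecKO 1 was left out. *Hey1* (ENSMUSG00000040289, chromosome 3, 8726956 to 8732385), a related repressor, read 16.6, 9.95 and 8.53 CPM in control uteri, against 11.2, 12.5 and 55.2 in the *Gp130* ecKO. Here *Gp130* ecKO 3 stood apart, and *Gp130* ecKO 1 and 2 lay within the control range. *Hey1* had a log2 fold change of 1.17 ± 0.64 (SE; edgeR adjusted p = 0.289), and of 0.04 when *Gp130* ecKO 3 was left out. The high uterus was thus a different one for each target. *Hes1* was highest in the same uterus as *Dll4*, *Gp130* ecKO 1. The summed TPM of the targets was 55.4, 80.7 and 74.8 in control uteri, against 148, 88.8 and 88.0 in the *Gp130* ecKO, and did not overlap, while their summed CPM (67.0, 80.9 and 67.7 against 139.8, 78.9 and 109.9) did.

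**Figure D3:**
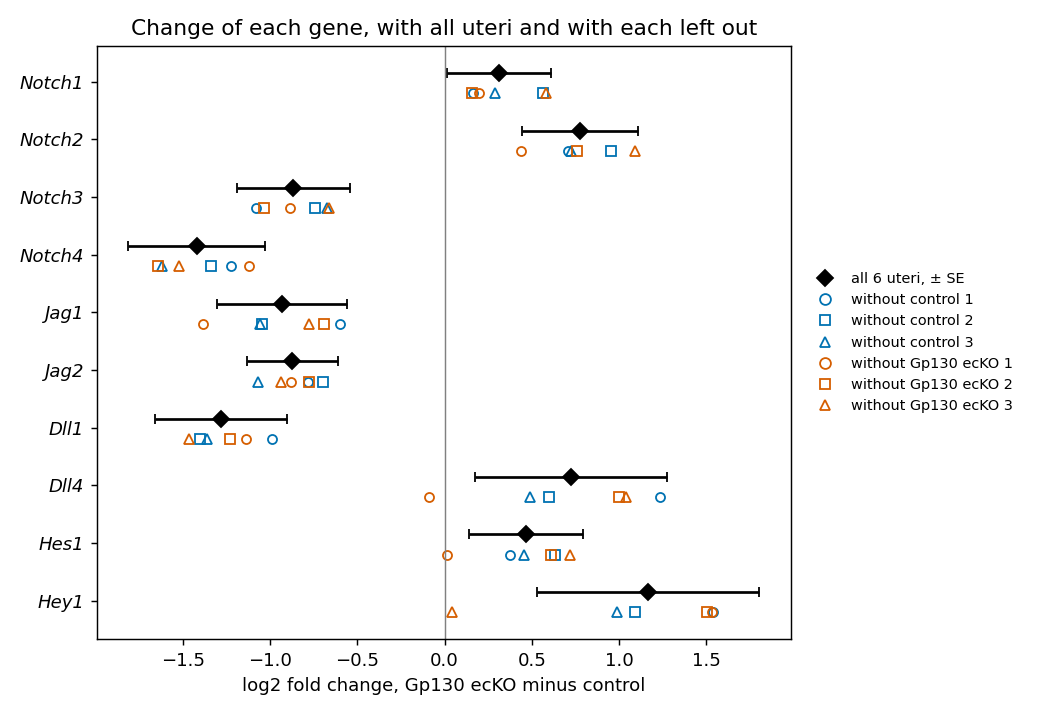
The log2 fold change (*Gp130* ecKO minus control) of each gene is drawn with all 6 uteri (black diamond, ± standard error) and with each uterus left out (open symbols, blue for a control and orange for a *Gp130* ecKO left out). The lower genes *Notch3*, *Notch4*, *Jag1*, *Jag2* and *Dll1* stay below 0 in every case, while *Dll4* and *Hes1* move to −0.09 and 0.01 without *Gp130* ecKO 1 and *Hey1* to 0.04 without *Gp130* ecKO 3.

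The other genes of the pathway were taken from a list of 49, of which 43 were tested. In the quasi-likelihood test 0 passed the FDR threshold, against 3 with the exact test, 3 with the likelihood ratio test and 7 with DESeq2, which called 8.99%, 9.5% and 13.4% of all tested genes. At an unadjusted p below 0.05 there were 2 higher and 8 lower genes, beside 12.1% and 12.9% of all tested genes. The median log2 fold change of the 43 was −0.09. *Dll3*, *Hes3* and *Hes5* had 0 counts in all uteri, which allows up to 0.116 to 0.215 CPM per library (3 counts of the total, counting error only). *Dlk2*, *Hes2* and *Hes7* were also too low to test, and *Dlk1*, the only other ligand tested, overlapped between the groups (log2 fold change −1.24, edgeR adjusted p = 0.463).

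Of the 4 other targets that were tested, 2 were lower at the unadjusted p, beside 12.9% of all tested genes. *Nrarp*, an ankyrin-repeat inhibitor of Notch that is itself a target, had 10.8, 15.2 and 13.2 CPM in control uteri against 4.52, 7.65 and 6.18 in the *Gp130* ecKO. All *Gp130* ecKO uteri were below all controls (log2 fold change −1.09, standard error 0.29, unadjusted p = 0.00657, edgeR adjusted p = 0.101). Like *Mfng* and *Dtx4* below, *Nrarp* was under the FDR threshold with DESeq2 and with the exact and likelihood ratio tests of edgeR. *Heyl*, a relative of *Hey1*, had 5.99, 12.03 and 14.6 CPM in control uteri against 3.80, 6.31 and 3.19 in the *Gp130* ecKO, where *Gp130* ecKO 2 was above control 1 (log2 fold change −1.29, edgeR adjusted p = 0.133). *Hes6* was at 16.9, 30.0 and 15.5 CPM in control uteri against 20.4, 22.0 and 48.4 in the *Gp130* ecKO, so like *Hey1* it was highest in *Gp130* ecKO 3. *Hes6* had a log2 fold change of 0.54 (edgeR adjusted p = 0.433), and *Hey2*, the remaining target tested, one of −0.48 (0.493). *Nrarp*, *Heyl* and *Hey2* thus had negative and *Hes1*, *Hey1* and *Hes6* positive log2 fold changes. Those of *Hes1* and *Hey1* were 0.01 without *Gp130* ecKO 1 and 0.04 without *Gp130* ecKO 3.

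Among the 5 genes that add sugars to the receptor's EGF repeats, 1 was lower at the unadjusted p, beside 12.9% of all tested genes. This was *Mfng* (Manic fringe), a glycosyltransferase that alters how receptors respond to Delta-like and Jagged ligands, with 20.3, 11.9 and 12.3 CPM in control uteri against 4.11, 6.11 and 5.60 in the *Gp130* ecKO. The groups did not overlap (log2 fold change −1.49, standard error 0.32, unadjusted p = 0.00195, edgeR adjusted p = 0.0766), and DESeq2 and the exact and likelihood ratio tests of edgeR placed *Mfng* below the FDR threshold. Its relatives *Lfng* (log2 fold change −0.66, adjusted p = 0.274) and *Rfng* (−0.53, adjusted p = 0.325) overlapped between the groups in edgeR's fit. Of the 5 genes for ubiquitination of ligands, 1 was lower at the unadjusted p, beside 12.9% of all tested genes. This was *Neurl1a* (log2 fold change −1.31, edgeR adjusted p = 0.122), and *Mib1*, the most abundant in TPM, had a log2 fold change of 0.15 (adjusted p = 0.599).

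The 10 genes of receptor cleavage, among them *Adam10* and the γ-secretase subunits, had log2 fold changes between −0.31 and 0.68. None had an unadjusted p below 0.05 in edgeR's test, beside 25% of all tested genes. Of the 10, 8 were higher in sign, as 47.1% of all tested genes were. In 2 of them, *Adam10* included, all *Gp130* ecKO uteri were above all controls, beside 15.7% of all tested genes. *Adam10*, the main protease of the ligand-dependent cut, had 203, 179.7 and 181 CPM in control uteri against 213, 233 and 253 in the *Gp130* ecKO (log2 fold change 0.31, edgeR adjusted p = 0.249). Of the 10 genes of the nuclear complex, 1 was lower at the unadjusted p, beside 12.9% of all tested genes. This was *Tle1*, a corepressor (log2 fold change −0.41, edgeR adjusted p = 0.173). *Rbpj*, named here after its values were seen, had a log2 fold change of −0.35 (adjusted p = 0.381). Of the 8 genes of inhibition and turnover, 2 were higher and 3 lower at the unadjusted p, beside 12.1% and 12.9% of all tested genes. The E3 ligase *Itch* was among the higher ones, at 64.65, 66.4 and 71.6 CPM in control uteri against 109.5, 101 and 87.9 in the *Gp130* ecKO (log2 fold change 0.56, edgeR adjusted p = 0.104). *Dtx4*, a Deltex ligase, had 27.8, 95.4 and 32.7 CPM in control uteri against 185, 222 and 97.6 in the *Gp130* ecKO. The groups of *Dtx4* nearly touched, at control 2 and *Gp130* ecKO 3 (log2 fold change 1.69, edgeR adjusted p = 0.119), and *Dtx4* passed the FDR threshold with DESeq2 and with edgeR's other tests (exact and likelihood ratio) on all 6 uteri, and in the quasi-likelihood test when control 2 was left out, as 5.41% of all genes tested then did. Its relative *Dtx1* had a log2 fold change of −0.86 (adjusted p = 0.138). *Dtx3* (−1.39) and *Fbxw7* (−0.54), named after their values were seen, were also lower at the unadjusted p.

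**Figure D4:**
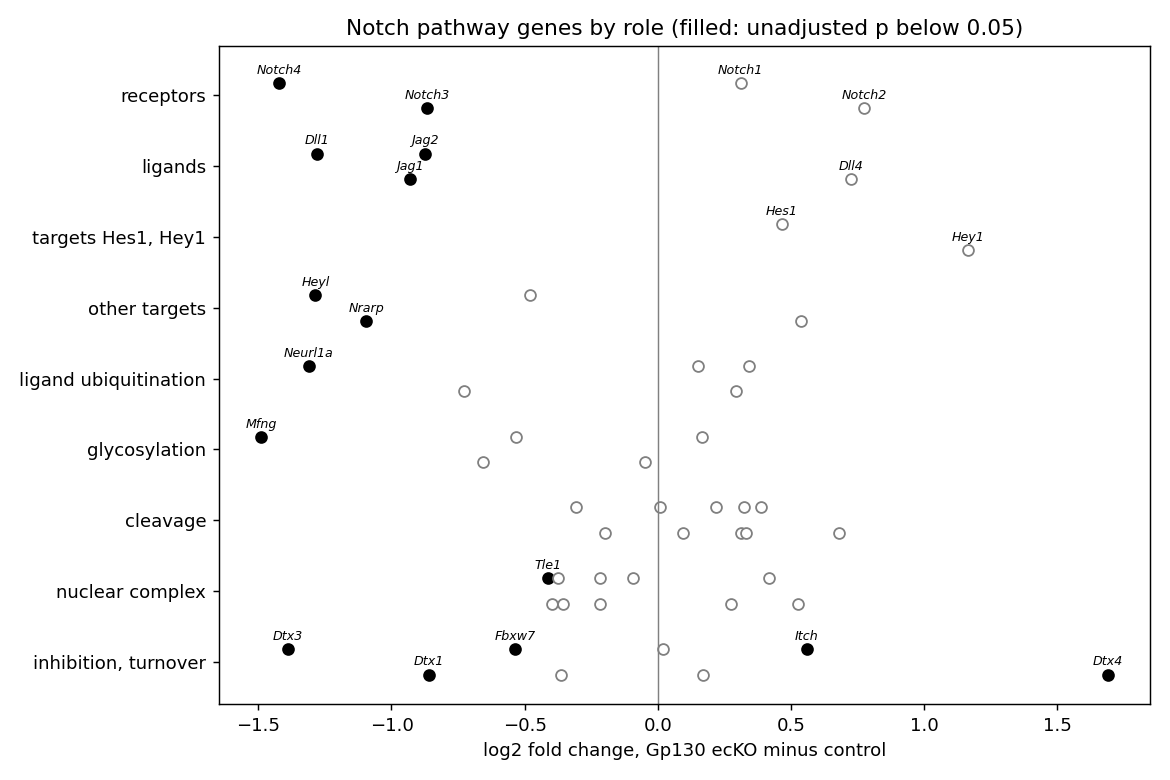
Each circle is the log2 fold change (*Gp130* ecKO minus control) of 1 tested gene of the pathway, in rows by role, filled where the unadjusted p of edgeR's quasi-likelihood test is below 0.05. The members and the filled genes are named. Filled circles lie on the lower side for receptors, ligands, other targets, glycosylation, ubiquitination and the nuclear complex, and on both sides for inhibition and turnover. They are absent among the 10 cleavage genes and for the targets *Hes1* and *Hey1*. The other ligand tested, *Dlk1*, is not drawn.

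Markers of the cell types in the organ were compared between the groups in the same libraries. In the quasi-likelihood test 0 of these markers passed the FDR threshold, beside 0.157% of all tested genes. All 8 endothelial markers had a negative log2 fold change (median −1.25), and 7 of the 8 were lower at an unadjusted p below 0.05, against 12.9% of all tested genes. Their summed TPM was 197 to 509 in the control and 125 to 202 in the *Gp130* ecKO. *Notch4* (−1.42) differed in the same direction as all 8, which were *Tie1* (−1.44), *Emcn* (−1.42), *Tek* (−1.28), *Kdr* (−1.26), *Erg* (−1.23), *Pecam1* (−1.20), *Cldn5* (−1.08) and *Cdh5* (−0.94). Relative to the mean log2 CPM of the 8 markers, *Notch4* was at −2.29 ± 0.34 (SD, n = 3) in the control and −2.54 ± 0.27 (SD, n = 3) in the *Gp130* ecKO, and the groups overlapped. *Dll1* (−4.19 and −4.09) and *Notch1* (−0.23 and 1.19) overlapped as well on that scale. *Dll4* did not overlap, at −1.72, −2.10 and −1.55 in the controls and 1.47, −0.81 and −0.87 in the *Gp130* ecKO. This scale was chosen after the values were seen.

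**Figure D5:**
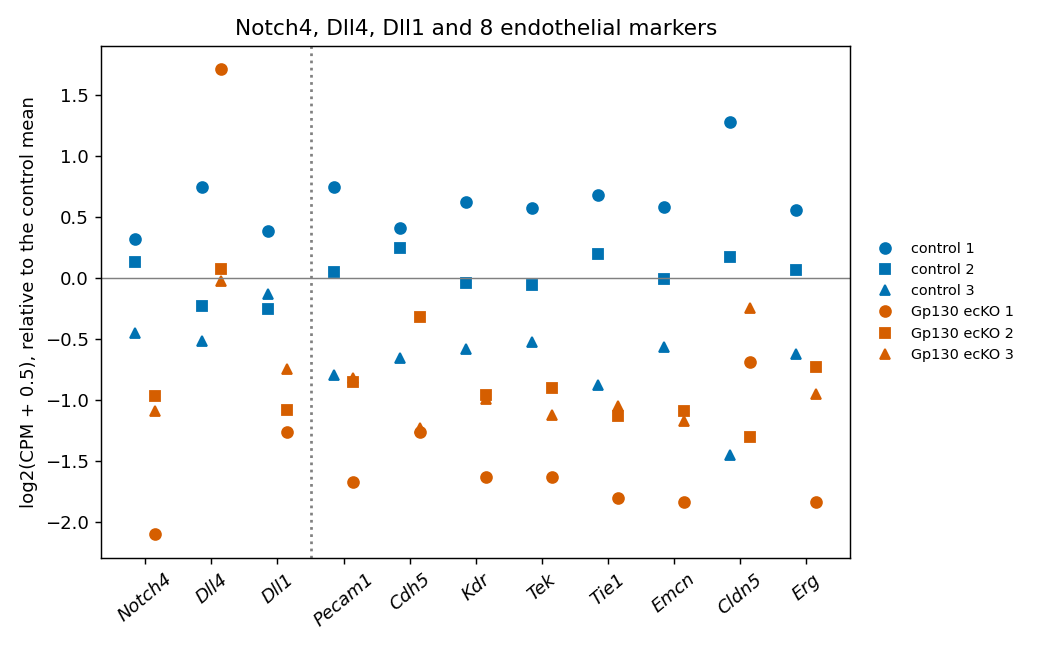
The log2(CPM + 0.5) of *Notch4*, *Dll4*, *Dll1* and 8 endothelial markers is drawn per uterus, relative to the mean of the controls (grey line, blue symbols for controls, orange for *Gp130* ecKO). *Notch4*, *Dll1* and most markers lie lower in the *Gp130* ecKO, with *Gp130* ecKO 1 lowest for *Notch4* and highest for *Dll4*.

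The 8 mural and muscle markers were all lower in sign (median −0.50). Of these, 3 were lower at the unadjusted p, beside 12.9% of all tested genes, namely *Rgs5* (−1.48), *Cspg4* (−1.23) and *Mcam* (−1.53). The summed TPM of all 8, at 548 to 1901 in the control and 365 to 2046 in the *Gp130* ecKO, overlapped. Relative to the mean of that list *Notch3* was at −2.77 ± 1.17 (SD, n = 3) in the control and −2.80 ± 1.23 (SD, n = 3) in the *Gp130* ecKO. Per uterus this was −3.82, −2.99 and −1.51 against −1.76, −2.49 and −4.15, so the groups overlapped. Muscle genes of that list varied widely within a group, as *Acta2* did (986, 626 and 170 CPM in control uteri, 146, 286 and 1098 in the *Gp130* ecKO). Epithelial markers were at 1290 to 2035 TPM in sum in the control and 3268 to 4618 TPM in the *Gp130* ecKO, with 5 of 8 higher at the unadjusted p (12.1% of all tested genes were). These 5 were *Krt19* (log2 fold change 2.19), *Krt8* (1.32) and *Krt7* (1.23), which encode keratins, the splicing regulator *Esrp1* (0.79) and *Cdh1* (0.66), which encodes E-cadherin. *Krt18* was at 0.74, *Foxa2*, of the glands, at 0.26 and *Epcam* at −0.19, so the list was not uniform. Relative to the mean log2 CPM of these 8 epithelial markers, *Jag1* was at −1.40 ± 0.63 (SD, n = 3) in the control and −3.30 ± 0.42 (SD, n = 3) in the *Gp130* ecKO, and *Jag2* at −3.08 ± 0.16 (SD, n = 3) and −4.82 ± 0.19 (SD, n = 3). The log2 fold changes of *Jag1* and *Jag2* themselves were −0.93 and −0.87, and the mean of the markers was higher in the *Gp130* ecKO. By staining, the paper reports more KRT8 and CDH1 in the *Gp130* ecKO epithelium, so this scale is not a level per epithelial cell. It too was chosen after the values were seen. All 8 stromal markers had a negative log2 fold change, and 6 of the 8 were lower at the unadjusted p, beside 12.9% of all tested genes. Their summed TPM was 1900 to 2196 in the control and 1065 to 1518 in the *Gp130* ecKO. Immune markers overlapped in sum, at 33.8 to 57.4 TPM and 24.3 to 64.2 TPM. Of these 8, 7 were lower in sign and 1, *S100a8*, was lower at the unadjusted p, beside 12.9% of all tested genes. *S100a8* had at most 21 counts in a uterus (log2 fold change −3.24, edgeR unadjusted p = 0.0017 and adjusted p = 0.0745). The part of these shifts in the values of the Notch genes was not tested. *Il6st* itself had 631, 678 and 452 CPM in control uteri against 388, 349.8 and 362 in the *Gp130* ecKO.

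Some members share their locus with other genes. The long noncoding RNAs *0610009E02Rik* and *Gm13568* lie on the strand opposite *Notch1*, and had log2 fold changes of −1.79 (adjusted p = 0.0855) and −1.45 (adjusted p = 0.0950) in edgeR's fit, whereas *Notch1* had 0.31. *Gm14207*, opposite *Dll4*, had 4.25, 2.7 and 0.933 CPM in control uteri against 15.2, 5.04 and 4.81 in the *Gp130* ecKO, and was highest in *Gp130* ecKO 1 like *Dll4* (log2 fold change 1.63, edgeR adjusted p = 0.177). *Fam120b*, opposite *Dll1*, had a log2 fold change of 0.62 (adjusted p = 0.0980), against −1.28 for *Dll1*. Libraries were strand-specific, but whether the counting used the strand is not given in the sources used here, so reads of such pairs may not be separated. These 4 genes were named because they overlap a member and were tested.

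By likeness of the pattern over the 6 uteri (root mean square distance of log2(CPM + 0.5), each gene centred on its own mean), the 2 nearest genes to *Notch4* were *Plau* and *Adgrl4*, at 0.08 and 0.10, against a median distance of 0.875 over the other genes with a mean of at least 1 CPM. For *Jag2* they were *Tnnt1* and *Tcf7l1* (0.09 and 0.09, median 0.59), and for *Dll1* they were *Stab1* and *Cdyl2* (0.09 and 0.11, median 0.66). *Adgrl4* had 91.0, 82.4 and 50.6 CPM in control uteri against 16.7, 43.5 and 33.3 in the *Gp130* ecKO. With 6 libraries in 2 groups many genes share such a pattern, and the likeness is a description.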

How the data were processed

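Poly(A) RNA of 3 control and 3 *Gp130* ecKO uteri was read as single strand-specific reads of the authors' libraries. The authors trimmed reads with fastp 0.23.2, removed ribosomal RNA reads, mapped the rest to GRCm39 with STAR 2.7.10a and deposited RSEM 1.3.3 expected counts, TPM and FPKM per gene. The annotation version is not given in the sources used here. RSEM divides shared reads between genes and transcripts. Deposited TPM, which the authors' tool corrects for transcript length and library total, was used only for levels and shares; deposited FPKM was not used, and deposited lengths and other columns were used only to describe TPM. Totals were 13960748 (control 3) to 25906443 counts.

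Identifiers were matched to GENCODE M39 on GRCm39 (56017 of 56748). Expected counts were rounded, filtered with filterByExpr (16605 genes), TMM-scaled and tested in R 4.3.3 with edgeR 4.0.16 (glmQLFit without the legacy setting, glmQLFTest), with Benjamini-Hochberg adjustment over all tested genes. The threshold was an FDR of 0.05, and the study also asks for a change of more than 2-fold. SE was obtained from the estimate and its F statistic (estimate over the root of F). CPM is relative to the TMM-scaled library size, and the pseudocount on log scales was 0.5. DESeq2 1.42.0, other tests, scalings, filters, the replicate block and leaving out each uterus were alternatives. The script was tested on simulated data. The p-values of edgeR and DESeq2 weigh the difference between the groups against the spread between uteri within a group. Named were all members, and per pathway role some, not all, of the 3 genes of smallest p or highest TPM, with the exceptions stated. For members without overlap, the 2 genes of nearest pattern were named. Members and lists were chosen with earlier results of these data known.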

Additional observations from a re-analysis of the deposited data

How the results depend on the processing

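Of 170 comparisons of a member's log2 fold change with an alternative, 164 kept sign and side of the FDR threshold. For *Dll4*, leaving out each uterus gave −0.0868 (adjusted p = 0.931, without *Gp130* ecKO 1) to 1.23 (without control 1). The 5 that came to pass the threshold were *Notch4* with DESeq2 and with the exact and likelihood ratio tests of edgeR, and *Jag2* and *Dll1* with DESeq2. The cause was not tested.

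Members below the FDR threshold numbered 0 in the quasi-likelihood test, 1 with the exact test, 1 with the likelihood ratio test and 3 with DESeq2 (8.99%, 9.5% and 13.4% of all tested genes), and 0 to 0 with each uterus left out. The other pathway genes numbered 0, and 3, 3 and 7 with those tests, and 0 to 1 with each uterus left out, *Dtx4* without control 2. Members at an unadjusted p below 0.05 numbered 5, and 3 to 5 with each uterus left out, 3 without control 1 (*Notch3*, *Notch4* and *Jag2*), where 15.4% to 27.3% of all tested genes did and 19.2% without control 1. They numbered 6 with the exact test, the likelihood ratio test, DESeq2, RLE scaling and no filter, where *Notch2*, which was higher, joined the 5 lower ones (16.8% of all genes without a filter, 24.1% to 27.3% in the others). Members without overlap numbered 3, and 3 to 6 with each uterus left out, 6 without control 1 (39% of all tested genes) and 5 without *Gp130* ecKO 3 (45.5%), where fewer uteri make overlap less likely, and 4 with library size or upper quartile scaling (31.3% and 31.6%), *Jag1* added. Over all genes, 26 passed the FDR threshold and a 2-fold change (21 higher, 5 lower), against 7 with the legacy quasi-likelihood form, 1252 with the exact test, 1317 with the likelihood ratio test, 1546 with DESeq2, 105 without a filter, and 1 to 897 with each uterus left out, 897 without control 2.

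With the replicate number as a block, 6 genes passed, and 0 members; at the unadjusted p *Notch3* left and *Dll4*, which was higher, entered. The deviations of same-numbered uteri correlated at 0.104, 0.069 and −0.196, and among the 6 uteri *Gp130* ecKO 1 and control 2 correlated best with their own number, so the numbers were not taken to pair the uteri. Depth limits *Dll1* most, which had 25 counts in *Gp130* ecKO 1 and 35 in *Gp130* ecKO 2.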
